A study of Mus musculus with 37 samples.

Results

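A set of 8 genes that serve as markers of injury to the kidney tubule was followed through RNA bound to podocyte ribosomes in a pair of mouse models of diabetes. The 8 genes, Havcr1, Lcn2, Krt20, Spp1, Slc34a2, Clu, Sox9 and Capg, were taken by symbol from the 32108 genes of the deposited count table, and each symbol was found. They were picked with the diabetic and control values of these same libraries known, so those values are given as a description. No p is given for the 8 genes in these contrasts, and counts of how many passed the threshold are bookkeeping beside the share of all genes, not evidence. Podocyte RNA came from translating ribosome affinity purification (TRAP), in which tagged ribosomes of a chosen cell type are pulled down with their RNA, and 36 TRAP libraries and 1 library of total RNA from whole kidney were sequenced. All mice are labelled C57BL/6. Controls of the type 2 model carried eNOS-/-, which removes endothelial nitric oxide synthase, and diabetic mice of that model were eNOS-/- db/db, so all of its mice lacked eNOS. There were 5 control and 5 diabetic TRAP libraries at 3 months of age, and 4 control and 3 diabetic libraries at 6 months. In the type 1 model, diabetic mice received streptozotocin (STZ), a toxin of insulin-producing cells, and controls did not. It had 4 control and 5 diabetic libraries at 3 weeks (age 3 months), and 5 control and 5 diabetic libraries at 24 weeks (age 8 months). The sources used here give no genotype for the type 1 mice. Toxic effects of STZ and effects of high blood sugar cannot be told apart in that model. The whole-kidney library came from an eNOS-/- control at 3 months. The deposited tables are titled for a podocin Cre driver, podocin being a podocyte protein, and the labels do not say whether each library is 1 animal.

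The kidney tubule reclaims most of what the filter lets through, and its proximal segment is the part most readily damaged by poor oxygen supply, toxins or heavy protein load. Injured tubule cells lose their transport proteins and switch on a repair program of adhesion molecules, secreted glycoproteins, cytoskeletal proteins and developmental transcription factors. Podocytes, by contrast, are the cells of the filter itself, wrapped around its capillaries. Havcr1 encodes KIM-1, a phagocytic receptor that appears on injured proximal tubule cells and is shed into urine. Lcn2 encodes NGAL, a secreted carrier of iron-binding siderophores that is made by injured distal tubule and also stored in neutrophil granules. Krt20 encodes an intermediate filament keratin. Spp1 encodes osteopontin, a secreted ligand of integrins and CD44, and Clu encodes clusterin, a secreted chaperone. Slc34a2 encodes a sodium phosphate cotransporter best known from lung and intestine. Sox9 encodes a transcription factor of kidney development that returns in regenerating tubule, and Capg encodes a protein that caps actin filaments and is also abundant in macrophages.

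The genes lie on 5 chromosomes of GRCm38, the build that the coordinates in the tables match. Havcr1 is on chromosome 11 (46735080 to 46779578, plus strand), as are Krt20 (99428403 to 99438150, minus strand) and Sox9 (112782224 to 112787760, plus strand). Spp1 (104435118 to 104441050, plus strand) and Slc34a2 (53038081 to 53071664, plus strand) are on chromosome 5. Lcn2 is on chromosome 2 (32384633 to 32388252, minus strand), Clu on chromosome 14 (65968483 to 65981548, plus strand) and Capg on chromosome 6 (72544391 to 72562983, plus strand). Spp1 overlaps the same-strand transcript Gm42793, which had 332 counts over all 37 libraries, and Slc34a2 overlaps the antisense transcript Gm17182, which had 28. The sources used here do not say if counting used strand, so reads of such pairs cannot be told apart.

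RefSeq promoters were at hand for 6 of the 8 genes. The 250 bases before a RefSeq transcript start (GRCm38.p6, 5′ to 3′ on the strand of the gene) are shown for the 5 of these with the largest log2 change at 6 months of the type 2 model, so that genes that moved together can be read side by side. Capitals mark matches to motifs searched on both strands. TTNNGCAA stands for C/EBP factors, which drive acute-phase genes. GGAATG stands for TEAD factors, the DNA-binding partners of YAP. TATAAA is the core of a TATA box, which places the start of transcription. TTCNNNGAA stands for STAT factors, which act downstream of cytokine receptors, and TGANTCA for AP-1, the FOS and JUN dimer. Havcr1 is taken at the most upstream of its 3 RefSeq starts and Spp1 at the most upstream of its 2. The windows of Havcr1, Slc34a2 and Lcn2 lie inside the gene spans of the deposited tables, whose gene models reach further upstream than these RefSeq starts.
Havcr1: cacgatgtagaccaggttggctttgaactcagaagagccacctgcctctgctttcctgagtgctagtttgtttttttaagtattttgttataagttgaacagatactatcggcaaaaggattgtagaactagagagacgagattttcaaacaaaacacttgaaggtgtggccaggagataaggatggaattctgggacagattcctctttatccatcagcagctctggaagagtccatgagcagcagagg
Lcn2: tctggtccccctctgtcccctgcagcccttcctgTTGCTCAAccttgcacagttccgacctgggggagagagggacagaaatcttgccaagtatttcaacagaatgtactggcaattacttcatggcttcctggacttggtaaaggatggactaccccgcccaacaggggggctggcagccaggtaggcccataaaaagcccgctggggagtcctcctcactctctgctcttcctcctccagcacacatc
Krt20: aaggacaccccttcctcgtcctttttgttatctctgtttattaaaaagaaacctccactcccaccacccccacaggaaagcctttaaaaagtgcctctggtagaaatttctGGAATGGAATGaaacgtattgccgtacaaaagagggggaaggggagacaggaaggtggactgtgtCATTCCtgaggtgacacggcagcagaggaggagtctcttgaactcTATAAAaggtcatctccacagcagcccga
Spp1: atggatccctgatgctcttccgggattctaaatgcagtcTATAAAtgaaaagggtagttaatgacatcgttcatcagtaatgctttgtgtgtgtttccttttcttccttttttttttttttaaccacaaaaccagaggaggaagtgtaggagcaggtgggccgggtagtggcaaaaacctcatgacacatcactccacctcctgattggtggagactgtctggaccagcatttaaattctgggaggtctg
Slc34a2: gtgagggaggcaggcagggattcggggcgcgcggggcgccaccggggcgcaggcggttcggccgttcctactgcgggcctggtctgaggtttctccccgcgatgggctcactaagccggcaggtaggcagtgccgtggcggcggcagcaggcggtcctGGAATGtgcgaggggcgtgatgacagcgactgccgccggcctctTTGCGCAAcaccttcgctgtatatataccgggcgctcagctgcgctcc
The windows are chr11:46739973-46740222 for Havcr1, chr2:32387740-32387989 for Lcn2, chr11:99438154-99438403 for Krt20, chr5:104434861-104435110 for Spp1 and chr5:53049103-53049352 for Slc34a2. GGAATG stood in Krt20 at 139 to 134 and again at 134 to 129 bases before the start, sharing 1 base, and on the opposite strand at 74 to 69. Slc34a2 held it at 92 to 87 bases, next to a C/EBP match at 48 to 41 that reads the same on both strands. Lcn2 had a C/EBP match at 216 to 209 bases. TATAAA stood 29 to 24 bases before the Krt20 start and 211 to 206 bases before the Spp1 start. Of the 6 promoters, 2 held the C/EBP letters, 2 the TEAD letters and 2 the letters TATAAA, against 9.56%, 12.6% and 12.4% of 32851 promoters. None of the 6 held the AP-1 letters, found in 6.75% of promoters, or the STAT letters, found in 7.02%. The Havcr1 window, and that of Capg, held none of the 5 motifs.

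The TRAP libraries held between 6702120 and 37786025 counts each and whole kidney 28033680. Levels are given as CPM, the count scaled to the library total. The podocyte label was checked with 12 marker genes, whose summed level was 22283 to 36619 CPM in the type 2 controls at 3 months and 578 CPM in whole kidney. Tubule RNA was present as well: the summed level of 20 proximal tubule genes was 10406 to 15973 CPM in those controls and 31347 CPM in whole kidney. In bulk samples, fewer cells of a type and less RNA per cell cannot be told apart. Libraries stood apart within groups. Type 2 diabetic library 4 at 3 months was the highest of its group for 8 of the 8 genes, and type 1 control library 4 at 24 weeks and type 1 diabetic library 3 at 24 weeks for 7 of 8 each. Type 1 diabetic library 5 at 3 weeks was the lowest of its group for 7 of 8. Among the 3 type 2 diabetic libraries at 6 months, library 2 was the lowest for 7 of 8 and library 3 the highest for 6.

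In TRAP RNA of the type 2 controls at 3 months, the injury genes were less abundant than in whole kidney. Whole kidney lay above all 5 type 2 control TRAP libraries at 3 months for 8 of 8 genes, as it did for 32.397% of 18511 genes. The kidney level over the mean TRAP level, each as CPM plus 0.5, was 2.93 for Krt20, 2.85 for Havcr1, 1.84 for Clu and 1.74 for Sox9. The Krt20 value rests on the pseudocount: its TRAP to kidney ratio was 0.341 with 0.5 added, 0.196 with 0.1 and 0.463 with 1. Spp1 stood at 217 CPM in kidney (exact 95% Poisson interval 212 to 223, counting error only) and at 81.0 ± 9.90 CPM (SD, n = 5) in TRAP. For scale, the kidney to TRAP ratio was 2.89 for Slc34a1, the phosphate transporter of the proximal tubule, and 1.74 for Umod of the thick ascending limb. Nphs1, which encodes nephrin of the podocyte slit diaphragm, went the other way, with a TRAP to kidney ratio of 112.5. The median ratio over the 8 genes was 2.42 and over all genes 1.02. Not every control group lay below whole kidney for each gene. In type 1 controls at 24 weeks the mean was above kidney for Havcr1 (8.30 against 6.28 CPM). It was also above for Lcn2 (3.31 against 1.93 CPM) and Clu (162 against 154 CPM), and below for the other genes. With 1 kidney library there is no replicate check, and TRAP RNA and total RNA also differ in how they were made.

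Per unit length, Spp1 and Clu were far above the rest. In type 2 controls at 3 months the deposited FPKM was 49.2 ± 6.01 for Spp1 and 24.2 ± 1.74 for Clu (SD, n = 5). Capg followed at 2.36 ± 0.227 and Havcr1 at 0.813 ± 0.204. Slc34a2 (0.414 ± 0.169), Sox9 (0.385 ± 0.157), Lcn2 (0.242 ± 0.102) and Krt20 (0.132 ± 0.202) were the lowest. The count behind a Krt20 value in these controls was 0 to 19 reads, so its differences rest on a near-empty baseline.

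**Figure D1:**
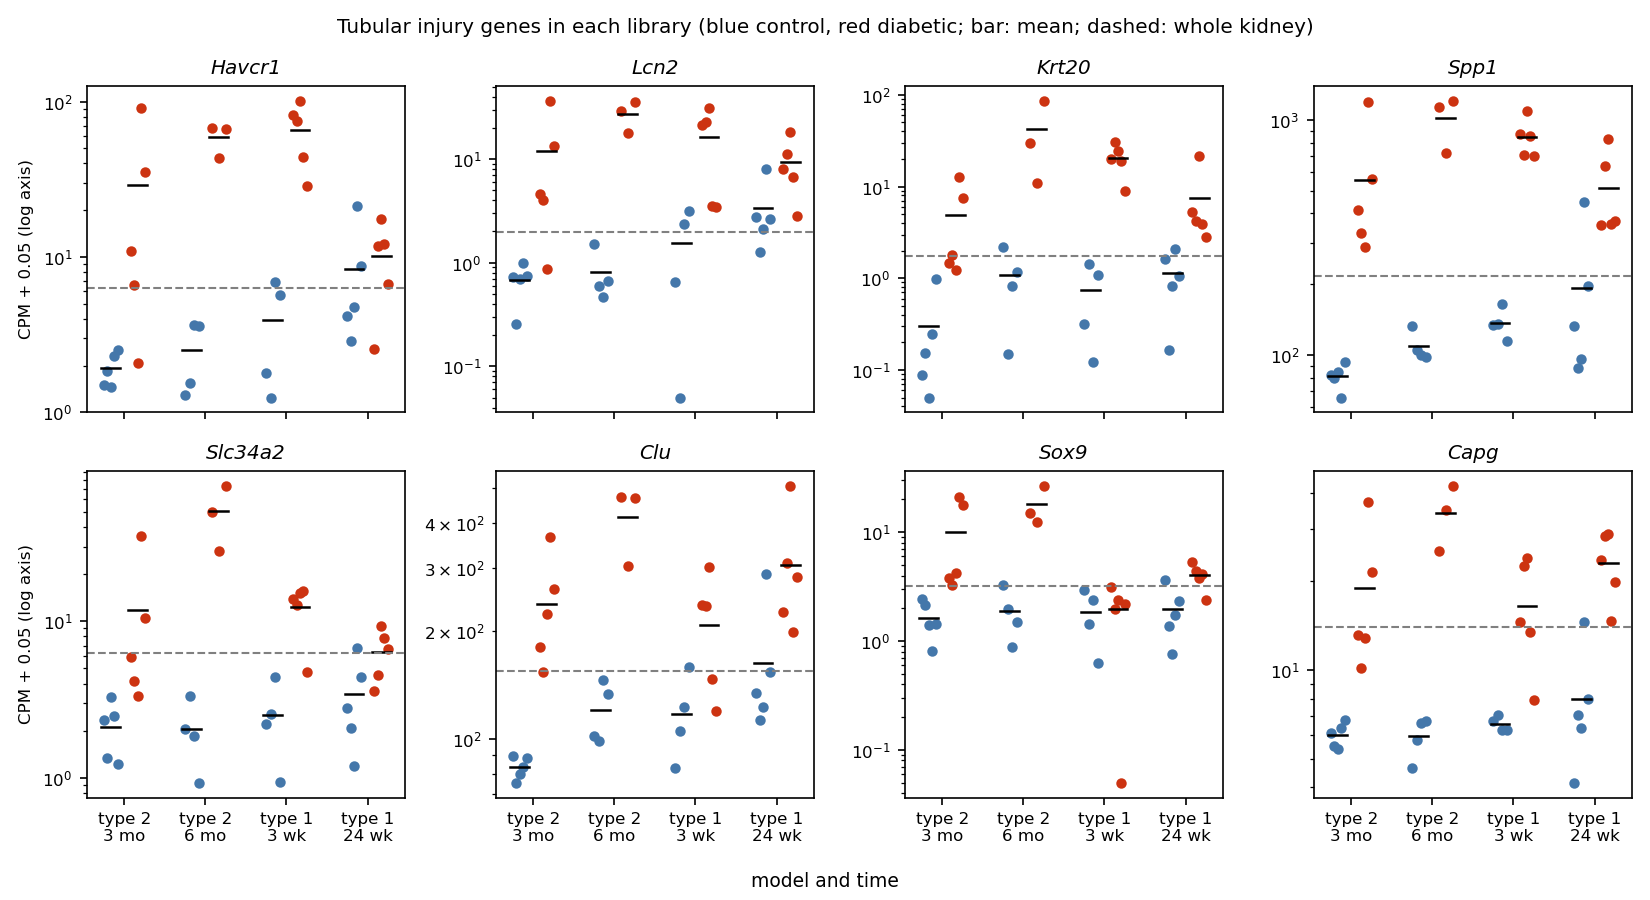
Each point is 1 TRAP library, placed by its CPM plus 0.05 on a log axis for each of the 8 genes; blue marks controls, red diabetic libraries, the bar the group mean and the dashed line the whole-kidney library. In the type 2 model at 6 months the 3 diabetic libraries sit above the 4 controls for every gene shown, while Sox9 overlaps between groups in the type 1 model at 3 weeks.

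Havcr1, the phagocytic receptor of injured proximal tubule, was high in 3 of the 4 diabetic groups and overlapped with controls in the fourth, the type 1 model at 24 weeks. Among type 2 libraries at 3 months, controls measured 1.46, 1.80, 1.41, 2.26 and 2.46 CPM and diabetic libraries 10.8, 6.57, 2.04, 90.5 and 35.3 CPM. Diabetic library 3 lay within the controls, and libraries 4 and 5 were far above the other 3. At 6 months, controls measured 1.24, 1.49, 3.58 and 3.56 CPM against 67.9, 43.5 and 66.4 CPM, with no overlap. The type 1 controls at 3 weeks measured 1.75, 1.19, 6.85 and 5.65 CPM and diabetic libraries 82.0, 74.4, 101, 43.7 and 28.7 CPM. At 24 weeks, controls measured 4.10, 2.83, 4.74, 21.1 and 8.75 CPM and diabetic libraries 2.52, 11.6, 17.5, 12.1 and 6.69 CPM. Every diabetic library at 24 weeks lay below the highest control. The fitted log2 changes were 3.81 ± 0.75 and 4.34 ± 0.87 (SE) at 3 and 6 months of the type 2 model, 3.96 ± 0.64 at 3 weeks of the type 1 model and 0.33 ± 0.53 at 24 weeks. Without type 2 diabetic libraries 4 and 5 the change at 3 months was 1.68, and without type 1 control library 4 the change at 24 weeks was 0.97. Without type 1 diabetic library 3 at 24 weeks it was 0.03.

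Lcn2, the siderophore carrier, followed the same order in the type 2 model. At 3 months, controls measured 0.673, 0.208, 0.653, 0.952 and 0.690 CPM and diabetic libraries 4.57, 3.93, 0.820, 36.4 and 13.2 CPM. Only diabetic library 3 fell within the control range. At 6 months, controls measured 1.48, 0.545, 0.413 and 0.610 CPM and diabetic libraries 28.8, 17.6 and 35.7 CPM. The type 1 diabetic libraries at 3 weeks fell into a high set and a low set, at 21.4, 22.4 and 31.0 CPM against 3.49 and 3.37 CPM, and the controls measured 0.606, 0, 2.28 and 3.09 CPM. The low set, libraries 4 and 5, still lay above every control. At 24 weeks, controls measured 2.69, 1.21, 2.05, 8.00 and 2.58 CPM and diabetic libraries 8.02, 11.1, 18.2, 6.73 and 2.74 CPM. Control library 4 overlapped 2 of the 5 diabetic libraries. The log2 changes, in the same order of groups, were 4.07 ± 0.76, 4.94 ± 0.89, 3.29 ± 0.84 and 1.55 ± 0.71. Without libraries 4 and 5 the first was 2.19. Neutrophils also store the Lcn2 protein, and most of their 8 markers had few or no reads. Elane had no count in the 36 TRAP libraries, Ly6g none in 35, Mpo none in 33 and S100a8 none in 28, but S100a9 had none in 19 and Csf3r, the G-CSF receptor gene, in 6. Of the 2 that could be tested, Csf3r rose at 6 months of the type 2 model from 0.590 ± 0.574 CPM (SD, n = 4) to 8.26 ± 8.71 CPM (n = 3; edgeR adjusted p = 0.0374). The other did not have a positive log2 change there and was not called. The summed level of the 8 neutrophil genes was 0 to 3.93 CPM in controls and 0 to 18.1 CPM in diabetic libraries, with the highest value in type 2 diabetic library 3 at 6 months. Csf3r carried most of that sum, with a mean of 2.00 CPM over the TRAP libraries against 0.252 CPM for S100a9, the next highest. Deviations of Lcn2 from its group means had a Pearson r of 0.587 with that sum over 36 libraries. The r was as high with the summed macrophage markers (0.594) and with smooth muscle and mesangial markers (0.595). The part of neutrophil RNA in the Lcn2 values was not tested.

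Krt20, the keratin, had the largest fitted log2 change of the 8 genes in each diabetic comparison. For the type 2 model at 3 months, controls measured 0.0374, 0.104, 0, 0.198 and 0.936 CPM and diabetic libraries 1.41, 1.76, 1.19, 12.7 and 7.46 CPM. At 6 months, controls measured 2.13, 0.0991, 0.779 and 1.12 CPM and diabetic libraries 29.8, 10.9 and 86.1 CPM. None of these libraries overlapped, but the diabetic values spread widely. For the type 1 model at 3 weeks, controls measured 0.269, 1.39, 0.0714 and 1.05 CPM and diabetic libraries 20.1, 30.6, 24.2, 19.1 and 8.99 CPM. At 24 weeks, controls measured 1.58, 0.116, 0.779, 2.01 and 0.998 CPM and diabetic libraries 5.22, 4.19, 21.4, 3.87 and 2.74 CPM, again without overlap. Diabetic library 3 was about as high at 24 weeks as the libraries at 3 weeks, and the other 4 were lower than all of them. The log2 changes were 4.20 ± 0.99, 5.09 ± 1.06, 4.70 ± 0.77 and 2.80 ± 0.65. They depend on single libraries: without type 2 control library 5 at 3 months the first was 5.60, without type 2 diabetic libraries 4 and 5 it was 2.49, and without type 1 diabetic library 3 the change at 24 weeks was 1.88.

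Spp1, the integrin ligand osteopontin, had the highest mean FPKM of the 8 genes in every group. Type 2 controls at 3 months measured 81.9, 80.0, 84.3, 65.8 and 93.1 CPM and diabetic libraries 414, 329, 289, 1194 and 558 CPM. At 6 months, controls measured 133, 105, 99.5 and 97.9 CPM and diabetic libraries 1132, 721 and 1206 CPM. The lowest diabetic library of the type 2 model was thus above the highest control at both ages. This included diabetic library 3 at 3 months, in which Havcr1 lay within the controls. Among type 1 libraries at 3 weeks, controls measured 133, 135, 164 and 115 CPM and diabetic libraries 873, 708, 1090, 850 and 704 CPM. At 24 weeks, controls measured 133, 87.9, 96.4, 448 and 196 CPM and diabetic libraries 358, 634, 831, 360 and 371 CPM. Control library 4 lay above 3 of the 5 diabetic libraries there. The log2 changes were 2.66 ± 0.29, 2.98 ± 0.34, 2.49 ± 0.38 and 1.46 ± 0.34, and the last was 1.98 without control library 4. Among the neighbouring groups in the order of mean level, the ranges of Spp1 overlapped for 6 of 7 pairs.

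Slc34a2, the phosphate cotransporter, was highest in the type 2 model at 6 months. At 3 months, controls measured 2.28, 1.28, 3.22, 2.42 and 1.18 CPM and diabetic libraries 5.85, 4.09, 3.31, 34.9 and 10.4 CPM. Library 4 stood far above the other 4. At 6 months, controls measured 2.01, 3.27, 1.79 and 0.882 CPM and diabetic libraries 49.9, 28.0 and 73.1 CPM. The type 1 controls at 3 weeks measured 2.15, 2.52, 4.36 and 0.890 CPM and diabetic libraries 13.7, 12.6, 15.0, 15.6 and 4.68 CPM. Library 5 was close to the highest control. At 24 weeks, controls measured 2.75, 2.02, 1.13, 6.68 and 4.34 CPM and diabetic libraries 3.54, 4.52, 9.29, 7.74 and 6.58 CPM, which overlapped. The log2 changes were 2.36 ± 0.56, 4.41 ± 0.70, 2.17 ± 0.49 and 0.92 ± 0.44. The first was 1.47 without type 2 diabetic library 4 and 1.00 without libraries 4 and 5. Slc34a1, the phosphate transporter of healthy proximal tubule, went the opposite way: it fell at 6 months of the type 2 model from 1518 ± 166 CPM (SD, n = 4) to 674 ± 409 CPM (n = 3), with a log2 change of -1.39 ± 0.37 (SE) and an adjusted p of 0.013 in edgeR's quasi-likelihood test. It also fell at 3 weeks of the type 1 model, by 1.09 ± 0.29 on the log2 scale (edgeR adjusted p = 0.0232).

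Sox9, the transcription factor of regenerating tubule, was higher in the type 2 diabetic libraries and was not in the early type 1 libraries. Among type 2 libraries at 3 months, controls measured 2.39, 2.08, 1.36, 0.754 and 1.38 CPM and diabetic libraries 3.77, 3.26, 4.21, 21.02 and 17.6 CPM. At 6 months, controls measured 3.19, 1.93, 0.825 and 1.46 CPM and diabetic libraries 15.1, 12.4 and 26.6 CPM. The diabetic libraries did not overlap the controls at either age. For the type 1 model at 3 weeks, controls measured 2.90, 1.39, 2.36 and 0.576 CPM and diabetic libraries 3.12, 1.94, 2.32, 0 and 2.15 CPM. Here 1 of 5 diabetic libraries exceeded the highest control, in the same libraries in which Havcr1 did not overlap. At 24 weeks, controls measured 3.63, 1.33, 0.708, 1.67 and 2.29 CPM and diabetic libraries 5.22, 4.35, 3.76, 4.11 and 2.36 CPM. The log2 changes were 2.54 ± 0.53, 3.03 ± 0.63, -0.09 ± 0.73 and 1.04 ± 0.69. At 3 weeks the sign turned when type 1 control library 1 (0.30), control library 3 (0.08) or diabetic library 4 (0.25) was left out, and without type 2 diabetic libraries 4 and 5 the change at 3 months was 1.152.

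Clu and Capg had the smallest log2 changes of the 8 in the type 2 model at both ages. Clu, the secreted chaperone, ranged from 75.4 to 89.6 CPM in type 2 controls at 3 months and from 154 to 366 CPM in diabetic libraries, and at 6 months from 98.7 to 146 CPM against 303 to 472 CPM. In the type 1 model it ranged from 82.8 to 159 CPM against 120 to 302 CPM at 3 weeks, and from 113 to 288 CPM against 199 to 507 CPM at 24 weeks, with overlap at both times. Its log2 changes were 1.40 ± 0.18, 1.55 ± 0.22, 0.68 ± 0.28 and 0.93 ± 0.26. Capg, the actin capping protein, ranged from 5.33 to 6.70 CPM in type 2 controls at 3 months and from 10.1 to 37.0 CPM in diabetic libraries, and at 6 months from 4.61 to 6.68 CPM against 25.3 to 42.1 CPM. At 3 weeks of the type 1 model its ranges were 6.21 to 6.97 CPM and 7.87 to 24.0 CPM, and at 24 weeks 4.10 to 14.4 CPM and 14.6 to 28.9 CPM. Capg was thus separated from its controls in all 4 comparisons, narrowly at 24 weeks, where control library 4 came within the reach of the lowest diabetic library. Its log2 changes were 1.55 ± 0.26, 2.29 ± 0.32, 1.18 ± 0.32 and 1.55 ± 0.30. Without type 2 diabetic libraries 4 and 5 the changes at 3 months were 1.07 for Clu and 0.92 for Capg.

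**Figure D2:**
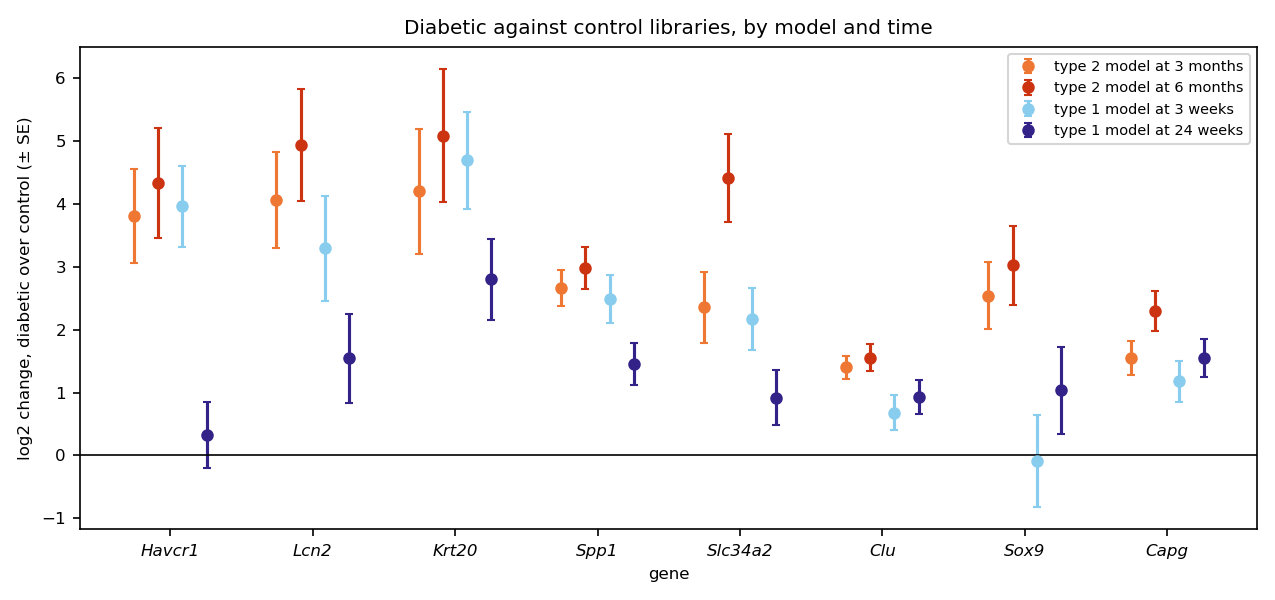
Log2 change of diabetic over control libraries with its SE for each of the 8 genes, in edgeR fits of the 17 type 2 and 19 type 1 libraries. Krt20 has the largest change in each comparison, Clu and Capg change by 0.68 to 2.29, and Sox9 at 3 weeks of the type 1 model is at -0.09.

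Genes were called at an adjusted p under 0.05 in edgeR's quasi-likelihood test over all genes tested. In the type 2 model at 3 months 8 of the 8 genes were called higher, against 2.03% of 17180 genes tested, and 6 did not overlap between groups, against 4.07%. At 6 months these were 8 of 8 against 11.2%, and 8 of 8 against 20.5%. In the type 1 model at 3 weeks they were 6 of 8 against 3.78% of 16279 genes, and 6 of 8 against 5.07%, the exceptions being Clu and Sox9 in both. At 24 weeks Krt20, Spp1 and Capg were called, 3 of 8 against 0.448%, and Krt20 and Capg did not overlap, 2 of 8 against 1.76%. Because the genes were picked from these contrasts, nothing is read from the counts. Each gene passed the low-count filter, which it can do through the diabetic libraries alone. The median log2 change of the 8 was 2.60, 3.68, 2.33 and 1.25 in this order, and that of all genes 0.04, -0.01, 0.00 and -0.01.

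The number called moved with single libraries. At 3 months of the type 2 model it was 6 without control library 1, 2 or 4 or diabetic library 4, and 7 without control library 3 or 5, the genes lost being Krt20 or Slc34a2 or both. It was 5 without diabetic libraries 4 and 5 together, which also ended the call of Sox9. At 3 weeks of the type 1 model it was 4 without control library 1 or diabetic library 3, which ended the calls of Lcn2 and Capg, and 5 without control library 3 or 4 or diabetic library 2, which ended that of Capg. Without diabetic libraries 4 and 5 together, an alternative chosen after seeing the data, it was 7, with Clu added at a log2 change of 0.96. At 24 weeks only Capg was called without control library 1, 2, 3 or 5 or diabetic library 2 or 3, and 4 genes, with Clu added, without control library 4 or diabetic library 4. The 8 calls at 6 months of the type 2 model were made under each library left out.

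The changes of the 2 models can be set side by side, since they share no library. These differences were not tested, as the genes were picked from both contrasts. At the early time, type 2 minus type 1, the difference in log2 change was 2.61 ± 0.85 (SE) for Sox9 and 0.71 ± 0.34 for Clu, and between -0.53 and 0.78 for the other 6 genes, each within 1 SE of 0. At the late time it was 4.01 ± 1.04 for Havcr1, 3.49 ± 0.80 for Slc34a2 and 3.40 ± 1.19 for Lcn2, and between 0.63 and 2.31 for the other 5. From the early to the late time, the type 2 change of Slc34a2 was larger by 2.03 ± 0.79, and the other 7 genes differed by 0.14 to 0.88. In the type 1 model the change of Havcr1 differed by -3.65 ± 0.99 and that of Spp1 by -1.06 ± 0.48 between 24 and 3 weeks, and Lcn2, Krt20 and Slc34a2 by -1.77 ± 1.10, -1.96 ± 1.18 and -1.29 ± 0.75, while Sox9, Capg and Clu differed by 1.08 ± 0.85, 0.34 ± 0.42 and 0.22 ± 0.34. Age in months differed between the late groups of the models, 6 against 8.

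Contrasts between control groups set no diabetic library against a control, although diabetic libraries share the fits and so enter the low-count filter, the normalization and the estimate of spread. Between 6 and 3 months in eNOS-/- controls no gene was called by edgeR among 17180 (0%), with 540 at an unadjusted p under 0.05 and 21 called by DESeq2. All 8 injury genes had an adjusted p of 1. Spp1, at 0.51 ± 0.29 (SE) on the log2 scale, and Clu, at 0.60 ± 0.19, did not overlap between ages, which was so for 0.873% of genes in that direction. Between 8 and 3 months in type 1 controls 603 genes were called (3.7%) and none of the 8, whose log2 changes ran from -0.02 for Sox9 to 1.04 for Lcn2 and whose lowest adjusted p was 0.412 for Havcr1. At 3 months of age the eNOS-/- controls were compared with the type 1 controls, a comparison in which anything else that differs between the models cannot be told apart from genotype. There 667 of 18511 genes were called (3.6%), and none of the 8. All 8 were nominally lower in the type 2 controls, from -0.24 for Capg to -1.62 for Krt20, and Spp1 (-0.87 ± 0.34, adjusted p = 0.157) did not overlap, as was so for 1.51% of genes in that direction. A p above the threshold does not show equal levels: for Krt20 the SE of this difference was 1.02. The sign turned for Sox9 (0.04) without type 1 control library 1 and for Slc34a2 (0.04) without type 1 control library 3. Summed podocyte markers were 22283 to 36619 CPM in these type 2 controls and 10444 to 23846 CPM in the type 1 controls. Summed proximal tubule markers were 10406 to 15973 CPM and 13277 to 22225 CPM. The part of these marker differences in the 8 genes was not tested.

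Part of a list of 38 other genes of tubular injury and repair was higher in diabetic libraries. The list was chosen with earlier results of these libraries known, so its direction is not independent evidence. In edgeR's test 15 of 37 tested rose and 0 fell at 3 months of the type 2 model, 22 of 37 and 0 at 6 months, 11 of 36 and 0 at 3 weeks of the type 1 model, and 3 of 36 and 0 at 24 weeks. The shares of all genes that rose were 2.03%, 11.2%, 3.78% and 0.448%. The median log2 changes of the list were 1.27, 1.86, 1.09 and 0.75, and those of all genes 0.04, -0.01, 0.00 and -0.01. Fgg, a fibrinogen chain made by injured tubule, rose at 3 months from 1.33 ± 0.516 to 14.8 ± 10.5 CPM (SD, n = 5 each), with a log2 change of 3.36 ± 0.39 (SE) and an edgeR adjusted p of 3.6e-05. Lgals3, which encodes the lectin galectin-3, rose by 1.96 ± 0.32, and Cxcl1, a neutrophil-attracting chemokine, rose by 2.83 ± 0.48. At 6 months Fgb, another fibrinogen chain, rose from 0.132 ± 0.104 CPM (n = 4) to 8.48 ± 1.95 CPM (n = 3), and Myc, a growth-promoting transcription factor, by 2.43 ± 0.36. At 3 weeks of the type 1 model the ferroxidase gene Cp rose from 24.9 ± 4.25 CPM (n = 4) to 121 ± 52.0 CPM (n = 5), and the integrin gene Itgb6, the adhesion gene Vcam1 and Prom1 rose by 1.61 ± 0.28, 2.03 ± 0.36 and 1.18 ± 0.22. At 24 weeks the called genes included Prom1 (1.09 ± 0.20) and the stress-induced cytokine gene Gdf15 (2.50 ± 0.55), with edgeR adjusted p of 0.00692 and 0.0304. Without type 2 diabetic libraries 4 and 5 the list's count at 3 months was 7, and without library 4 alone it was 8. At 24 weeks the count was 1 without control library 1, 2 or 5 or diabetic library 2, 3 or 5, and 5 without diabetic library 4.

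Among 20 regulators that act on injury genes, 1 rose and 1 fell at 3 months of the type 2 model, 7 rose and 2 fell at 6 months, 3 rose at 3 weeks of the type 1 model and none was called at 24 weeks. Over all genes 11.2% rose and 11.7% fell at 6 months, so that the regulators that fell there were about as many as the background gives. The background at 3 months was 2.03% and 1.96%, and at 3 weeks 3.78% rose. Runx1, a transcription factor, rose at 3 months by 2.07 ± 0.47 (SE, edgeR adjusted p = 0.0181) and at 6 months by 2.98 ± 0.57 (adjusted p = 0.00203). Il6st, the shared receptor chain of the interleukin-6 family, fell at 3 months by 0.52 ± 0.12 on the log2 scale (adjusted p = 0.0163). Elf3, an epithelial transcription factor, rose at 6 months by 2.58 ± 0.41, as did Klf6 by 1.14 ± 0.25 and Creb5 by 3.01 ± 0.71. At 3 weeks of the type 1 model Elf3 rose by 1.58 ± 0.33, the oncostatin M receptor gene Osmr by 1.80 ± 0.45 and the oxygen-sensing factor gene Hif1a by 0.71 ± 0.20.

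Receptors and partners of the secreted proteins did not move as a block. Of 18 tested, 3 rose and 0 fell at 3 months of the type 2 model, and 7 rose and 3 fell at 6 months. Of 16 tested, 1 rose and 2 fell at 3 weeks of the type 1 model, and none was called at 24 weeks. The background shares are those given for the regulators, with 2.72% of all genes lower at 3 weeks. Cd44, a receptor of osteopontin, rose at 3 months by 2.35 ± 0.56 (SE, edgeR adjusted p = 0.0225), and Itga5, an integrin chain, by 1.146 ± 0.284 at 3 months and 1.90 ± 0.34 at 6 months. Lrp8, a receptor that binds clusterin, rose from 1.25 ± 0.268 CPM (SD, n = 4) to 9.56 ± 0.947 CPM (n = 3) at 6 months. Cubn, an uptake receptor of proximal tubule, fell at 6 months by 1.31 ± 0.30, and Itgb5, an integrin chain, by 1.27 ± 0.23. At 3 weeks of the type 1 model Slc22a17, described as a receptor of NGAL, fell by 1.24 ± 0.29 and Lrp2, the uptake receptor megalin that also binds NGAL, by 0.91 ± 0.26, while the integrin gene Itga9 rose by 1.21 ± 0.33.

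Of 10 genes of phosphate handling, 1 rose and 5 fell at 6 months of the type 2 model, 2 fell at 3 weeks of the type 1 model and none was called in the other 2 comparisons, against 11.7% of all genes lower at 6 months and 2.72% at 3 weeks. Beside Slc34a1, Kl, which encodes the co-receptor Klotho, fell at 6 months by 1.08 ± 0.25 (SE), and Pth1r, the parathyroid hormone receptor gene, by 1.01 ± 0.30 there and by 0.86 ± 0.20 at 3 weeks. Slc20a1, a broadly expressed phosphate transporter gene, rose at 6 months by 0.76 ± 0.25 (edgeR adjusted p = 0.038). Of 10 genes that cap or sever actin, as Capg does, Cfl1 rose at 3 and 6 months of the type 2 model by 0.62 ± 0.16 and 0.69 ± 0.19. Scin, a relative of gelsolin, rose by 1.92 ± 0.31 at 6 months and by 1.75 ± 0.40 at 3 weeks of the type 1 model. No other gene of that list was called, and its 2 called genes at 6 months stand against 11.2% of all genes higher.

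Markers of other cell types differed between diabetic and control libraries in some of the comparisons. Of 12 macrophage markers, none was called at 3 months of the type 2 model or at 24 weeks of the type 1 model. At 6 months 9 rose, against 11.2% of all genes, and at 3 weeks 6 rose, against 3.78%. The summed level of the 12 markers was 56.9 to 80.2 CPM in type 2 controls at 3 months, and 59.3, 45.7, 52.9, 360 and 165 CPM in diabetic libraries 1 to 5. The high sums were thus in libraries 4 and 5, in which the injury genes were highest. In the first 3, with sums at or below the highest control, Spp1 was 289 to 414 CPM, Havcr1 2.04 to 10.8 CPM and Lcn2 0.820 to 4.57 CPM. Library 3 lay within the control range for Havcr1 and Lcn2. The part of macrophage RNA in these values was not tested. At 6 months the sum was 70.2 to 111 CPM in controls and 190 to 375 CPM in diabetic libraries. At 3 weeks it was 44.7 to 102 CPM in controls and 239, 301, 353, 98.2 and 108 CPM in diabetic libraries, the last 2 of which had the lowest Lcn2, and at 24 weeks it was 86.0 to 160 CPM against 133 to 261 CPM. None of the 12 was at 0 in every library of a TRAP group, and the most abundant were Csf1r and Lyz2. Of the 36 TRAP libraries, Ms4a7 had no count in 6, Cd68 in 3, and Adgre1 and Cd14 in 1 each.

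Smooth muscle and mesangial markers, 8 genes led by Tagln and Myh11, summed to 136 to 160 CPM in type 2 controls at 3 months and 218 to 886 CPM in diabetic libraries, with the highest value again in library 4. Of these, 2 rose at 3 months, 5 at 6 months, 2 at 3 weeks of the type 1 model and none at 24 weeks. Parietal epithelium markers, 6 genes led by Pax8 and Pax2, had 1, 3, 2 and 0 genes higher in the same order. Pax8 and Pax2 stood at 133 and 75.7 CPM in whole kidney and averaged 75.8 and 58.0 CPM in TRAP libraries. Whether their RNA came from parietal cells or other kidney cells was not tested. Proximal tubule markers went down: 5, 12, 12 and 3 of 20 fell and none rose. The other tubule segments did not follow as a block. Of 10 collecting duct markers 0, 2, 1 and 0 rose and none fell, with 5, 8, 9 and 9 positive changes. Of 7 thick ascending limb markers 0, 3, 0 and 0 fell and 0, 0, 1 and 0 rose. Of 4 distal convoluted tubule markers 0, 1, 0 and 0 fell and 0, 0, 1 and 1 rose. Over all genes tested, in the same order, 2.03%, 11.2%, 3.78% and 0.448% rose and 1.96%, 11.7%, 2.72% and 0.448% fell. The summed level of the proximal tubule markers was 5060 to 11404 CPM in type 2 diabetic libraries at 6 months against 12493 to 14874 CPM in controls. Among podocyte markers 1 of 12 fell at 3 months and 10 of 12 at 6 months, and the sum at 6 months was 3597 to 16313 CPM against 23539 to 28737 CPM. None was called in the type 1 model, but only 1 of 12 had a positive change at 3 weeks and 0 of 12 at 24 weeks. Their median log2 changes there were -0.34 and -0.51, against -0.49 at 3 months of the type 2 model. The part of these marker changes in the levels of the 8 genes was not tested.

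**Figure D3:**
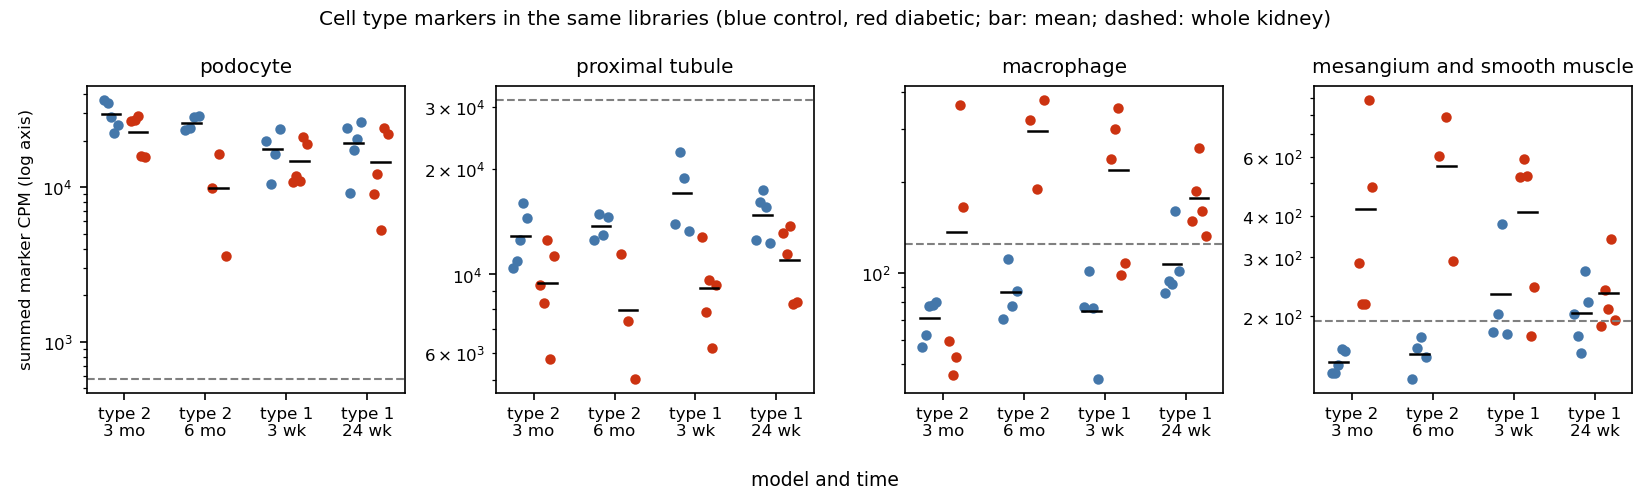
Summed CPM of marker genes of podocytes (12 genes), proximal tubule (20), macrophages (12) and mesangium with smooth muscle (8) in each TRAP library on log axes; blue marks controls, red diabetic libraries, the bar the mean and the dashed line whole kidney. The macrophage sum is 165 and 360 CPM in type 2 diabetic libraries 5 and 4 at 3 months and 45.7 to 59.3 CPM in the other 3.

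Within groups, the injury genes also varied together from library to library. With each group's mean removed from log2 CPM, the 28 pairs among the 8 genes had Pearson r from 0.17 to 0.77 over 36 TRAP libraries, with a median of 0.52. The closest pair was Havcr1 and Lcn2. Sox9 stood furthest from the others, with a median r of 0.23. Without the 8 type 2 diabetic libraries the range was -0.11 to 0.75 over 28 libraries. There Havcr1 and Clu were the closest pair, Havcr1 and Lcn2 had an r of 0.63, and 5 pairs were below 0, 4 of them with Sox9 and the other Krt20 with Slc34a2 (-0.09). These correlations describe the libraries, which share depth and cell makeup across genes, and carry no test. The same deviations had r of 0.52 to 0.76 with the summed macrophage markers, of 0.28 to 0.75 with parietal epithelium, of 0.29 to 0.69 with collecting duct, of 0.19 to 0.59 with neutrophil and of 0.15 to 0.67 with smooth muscle and mesangial markers. They had r of -0.49 to -0.16 with podocyte markers and of -0.25 to 0.12 with proximal tubule markers.

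**Figure D4:**
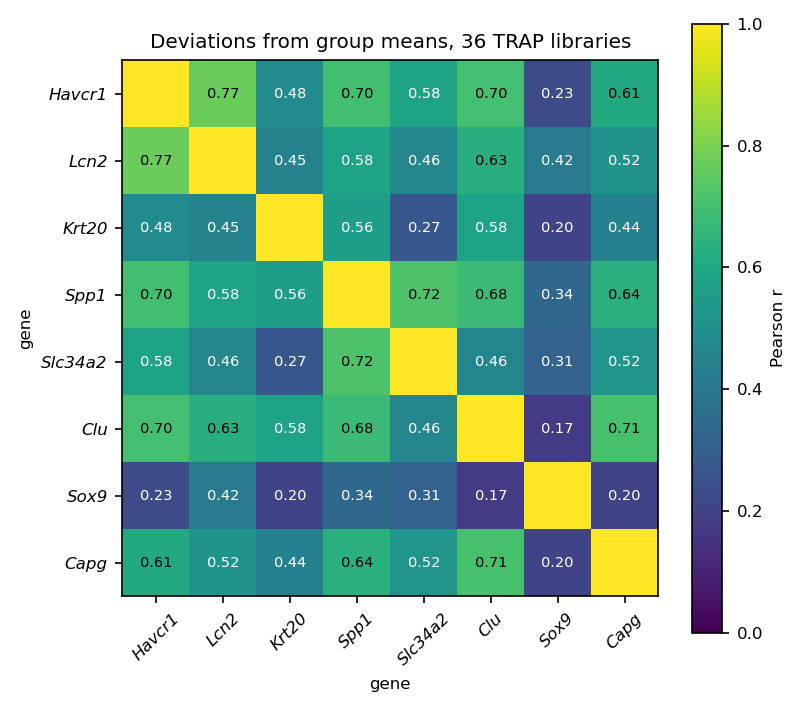
Pearson r between the 8 genes of deviations of log2 CPM from the group mean over 36 TRAP libraries; each cell is 1 pair. The Sox9 row is the lowest, with r of 0.17 to 0.42, and Havcr1 with Lcn2 is the highest at 0.77.

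Among 10972 genes (10973 for Sox9) with a mean of at least 5 CPM, those most like each injury gene by this measure can be named. Spp1 was closest to C3, the central complement protein (r = 0.88), and then to the chemokine gene Cxcl16 (0.83) and the syndecan gene Sdc1 (0.80). Clu was closest to Cp (0.83) and Adgrg1 (0.81), and Capg to Fblim1 (0.83), Bicc1 (0.81) and Fgd3 (0.80). Havcr1 was closest to Unc93b1 (0.81) and Marcks (0.80), Slc34a2 to Marcksl1 (0.81), Cxcl16 (0.79) and Mlph (0.76), and Sox9 to Itga4 (0.81), Chst2 (0.80) and Tbc1d8 (0.79). For Lcn2 the leading genes were Rasa3 (0.79), Havcr1 and Kif21b (both 0.77). Krt20 had the weakest likenesses, to Plek and H2-DMb2 (both 0.69) and Vars (0.69). Without the 8 type 2 diabetic libraries the r of Krt20 with Plek was 0.52, and that of Spp1 with C3 was 0.83, still its highest.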

How the data were processed

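Podocyte TRAP RNA (36 libraries) and whole-kidney total RNA (1) were sequenced from libraries of a NuGEN Ovation kit, per the labels' protocols. The authors deposited raw counts per gene and FPKM, which equals count over gene length and total. Per the submitters' processing notes, tools were STAR, featureCounts 1.15.2, cutadapt 1.16 and FastQC, and the build mm9, but the deposited coordinates matched GRCm38 (99.981% of 31871 genes overlapped their place in GENCODE M21).

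Groups follow the labels. Tests were run on the counts with edgeR 4.0.16 under R 4.3.3 (TMM, default filter by group, robust quasi-likelihood F tests, Benjamini-Hochberg at 0.05): 17 type 2 libraries (17180 genes), 19 type 1 libraries (16279) and all 36 (18511). CPM is count over total, without TMM. Alternatives were DESeq2 1.42.0, RLE size factors, other filters, other libraries in the fit, a replicate block and each library left out. The steps were also run on simulated counts in which all genes had the same spread and no library stood apart. That run does not cover groups with libraries that stand apart, as here. Plots used matplotlib 3.10.9. No library was a copy of another of its own group: the lowest chi-square per degree of freedom over 65 replicate pairs was 16.5. Libraries of different groups were not compared in this way. P-values measure the spread between libraries, which may be technical.

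The 8 genes and all lists were chosen with earlier results of these data known. Named genes are the 8, up to 4 called genes of lowest p per pathway list and comparison, up to 2 most abundant per cell type list, and the 3 most alike per injury gene, some of which are not reported here; neutrophil genes at 0 are named outside that rule, as are Nphs1, Umod, S100a9 and Csf3r. Itga8, Cdh6, Lrp2 and Slc34a1 stand in 2 lists each. Likeness used a prior count of 3.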

Additional observations from a re-analysis of the deposited data

Results flagged for a closer look

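Dixon's test of the highest and lowest library marked 6 of 56 groups of 4 or 5 libraries. Its rate by chance, about 1 in 20, holds for independent groups of normally distributed values. Plain CPM was used and the 8 genes share libraries, so no excess over that rate is read from the 6. In the type 1 model at 24 weeks, control library 4 stood apart for Lcn2 (8.00 CPM) and Clu (288 CPM), and diabetic library 3 for Krt20 (21.4 CPM). In the type 2 model at 3 months, control library 5 stood apart for Krt20 (0.936 CPM, 19 reads) and diabetic library 4 for Slc34a2 (34.9 CPM). In the type 1 model at 3 weeks, diabetic library 5 was low for Slc34a2 (4.68 CPM). Type 1 control library 4 also had the highest macrophage sum of its group (160 CPM), and type 2 diabetic library 4 the highest of its own (360 CPM); the part of this in the values was not tested. Differences between the models in the response of the 8 genes were not tested.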

How the results depend on the processing

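No called result changed sign, and in the diabetic comparisons each of the 8 genes kept its direction under DESeq2, other size factors and other filters. Calls of the 8 were lost all the same: without the low-count filter 6 were called at 3 months of the type 2 model (not Krt20 and Slc34a2), 5 at 3 weeks of the type 1 model (not Lcn2) and 1 at 24 weeks (Capg). DESeq2 called 4 at 24 weeks, adding Clu, and the 36-library fit lost Krt20 there and added Clu. Under the alternatives 123 gene counts and list counts stayed within 1.5 times of the value in the text and 45 did not.

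Genes called by DESeq2 against edgeR were 1246 against 685 (type 2, 3 months), 1735 against 1058 (type 1, 3 weeks), 429 against 146 (type 1, 24 weeks), 21 against 0 (age, type 2 controls), 1258 against 603 (age, type 1 controls) and 1173 against 667 (controls of both models), with 5 against 3 injury list genes at 24 weeks. Without the low-count filter the last 3 counts were 2, 368 and 411. In the 36-library fit they were 1636 at 3 weeks, 271 at 24 weeks and 1206 for age in type 1 controls. Without diabetic libraries 4 and 5 the counts were 418 (type 2, 3 months; 7 against 15 list genes) and 1821 (type 1, 3 weeks, added after seeing the data). The cause of these differences was not tested.

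Leaving out 1 library gave 404 to 737, 1932 to 5350, 611 to 1350 and 67 to 262 genes in the diabetic comparisons, and 8 to 18, 21 to 23, 8 to 13 and 1 to 5 list genes. It gave 0 to 0 and 365 to 612 for age and 407 to 783 between controls. The 1932 came without type 2 diabetic library 3 at 6 months.

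Replicate numbers showed no clear pairing of libraries: same-numbered deviations correlated at -0.14 to 0.16, and 0 to 50% of libraries matched best with their own number. Each comparison had 3 to 5 such pairs, too few to exclude a pairing. With the replicate block the counts were 535, 4104, 1202 and 157 in the diabetic comparisons, 0 and 597 for age and 486 between controls, and 10, 24, 13 and 2 list genes. Of the 8 genes, 6 were then called at 3 months of the type 2 model (not Slc34a2 and Sox9) and 1 at 24 weeks (Capg). Krt20 had 0 to 36 reads in a control library, which limits the precision of its fold change.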
